A study of Mus musculus with 12 samples.

Results

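The genes described here are 8 pituitary transcripts found in RNA from the mouse hypothalamic arcuate nucleus (ARC): 6 encode hormones or hormone subunits (*Gh*, *Prl*, *Cga*, *Tshb*, *Lhb* and *Fshb*) and 2 encode transcription factors (*Pou1f1* and *Pitx1*). All 8 were found by symbol among the 38283 genes of the table, each with 1 gene identifier used. They were chosen by name because their levels in these same libraries had been seen, so the pattern across libraries is a description and was not tested. The samples were 5 WT libraries and 7 libraries from mice homozygous for the R299Q knock-in allele of the γ2 subunit of AMPK (Homo). All came from freely fed male C57BL/6 mice aged 8 weeks. The knock-in is carried in the germline, so every cell of a Homo mouse carries it, the pituitary included, and no agent was given to either group. The ARC was cut from 14 μm brain sections by laser-capture microdissection and its RNA was amplified before sequencing. The labels do not say that each library came from a separate mouse, so p-values measure the spread between libraries, which may be partly technical. The allele is a point mutation that expression values do not show; its gene, *Prkag2*, ranged from 7.73 to 22.5 FPKM in the WT libraries and from 8.61 to 24.0 in the Homo libraries. FPKM is a count of fragments on a gene, scaled for how long its transcript is and how many fragments were mapped.

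The anterior pituitary lies under the hypothalamus, and its pars tuberalis is a thin sheet of cells against the median eminence, at the floor of the ARC. Separate cell types make its hormones: somatotrophs make growth hormone, lactotrophs prolactin, thyrotrophs thyroid-stimulating hormone and gonadotrophs luteinizing and follicle-stimulating hormone. The last 3 hormones share 1 α subunit, encoded by *Cga*, and differ in their β subunits. PITX1 acts broadly in the pituitary, whereas POU1F1 (Pit-1) is needed for somatotrophs, lactotrophs and thyrotrophs and activates *Gh*, *Prl*, *Tshb* and its own gene. Cells of the pars tuberalis are known for *Tshb*, *Cga* and the melatonin receptor gene *Mtnr1a*.

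Promoter sequences are shown for 3 members, since *Pou1f1* was above 0 in every library whereas *Prl*, which POU1F1 activates, and *Cga* were listed at 0 in most. RefSeq (GRCm38.p6) gave a promoter for 6 of the 8 members, not for *Gh* or *Pitx1*. Each line holds the 250 bases before the gene's RefSeq start, 5′ to 3′ on the gene's strand, which is the plus strand for all 3. Capitals mark ATGNATA, the core of the POU1F1 site, or its reverse complement TATNCAT.
Prl, chr13:27057320-27057569: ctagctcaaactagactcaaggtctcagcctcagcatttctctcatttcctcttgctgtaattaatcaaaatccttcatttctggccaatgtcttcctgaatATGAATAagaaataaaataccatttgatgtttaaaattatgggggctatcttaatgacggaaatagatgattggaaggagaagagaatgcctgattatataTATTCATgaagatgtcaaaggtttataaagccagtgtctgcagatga
Pou1f1, chr16:65520262-65520511: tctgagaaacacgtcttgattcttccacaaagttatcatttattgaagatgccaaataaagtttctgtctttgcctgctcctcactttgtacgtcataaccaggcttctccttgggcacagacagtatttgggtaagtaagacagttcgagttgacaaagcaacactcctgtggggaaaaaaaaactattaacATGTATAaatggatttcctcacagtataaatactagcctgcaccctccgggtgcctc
Cga, chr4:34893529-34893778: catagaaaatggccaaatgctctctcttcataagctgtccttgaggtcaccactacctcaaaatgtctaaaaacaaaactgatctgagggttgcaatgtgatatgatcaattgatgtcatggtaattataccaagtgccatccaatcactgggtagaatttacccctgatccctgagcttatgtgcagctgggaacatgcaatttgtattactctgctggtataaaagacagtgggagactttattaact

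The *Prl* window held 2 matches to the POU1F1 core, starting 148 and 47 bases before the start, and the *Pou1f1* window held 1, 57 bases before it. The *Pou1f1* match overlaps a TATAAA motif that starts 54 bases before the start. Among all 32851 RefSeq promoter windows of this length, 7.92% held the core on either strand. The *Cga*, *Tshb*, *Lhb* and *Fshb* windows and a second, downstream *Pou1f1* window held no match. TAATCC, the site of bicoid-type factors such as PITX1, was searched on both strands with its reverse complement GGATTA and matched none of the members' windows, against 6.25% of all windows. AAGGTCA, a site of the gonadotroph factor SF1, was found in the *Lhb* window alone among the members, 129 bases before the start and on the opposite strand, against 4.08% of all windows. TATAAA or its reverse complement TTTATA was found in the windows of all 6 members that had one, against 12.4% of all windows. These matches are letters in a window and show no binding.

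*Gh*, which encodes growth hormone, was the most abundant of the 8 in WT 3, WT 5 and Homo 7. It is a single-transcript gene on chromosome 11 (106300271 to 106301865, minus strand, GRCm38) with no overlapping gene in GENCODE release 21. In WT it was at 0, 0, 61.5, 0.139 and 64.5 FPKM in libraries 1 to 5, and in Homo it was listed at 0 in libraries 1 to 5, at 0.137 in Homo 6 and at 54.5 in Homo 7. Thus WT 3, WT 5 and Homo 7 each carried a high level, and nothing lay between 0.139 and 54.5 FPKM. *Gh* was the 917th most abundant gene in WT 3, the 1077th in WT 5 and the 1249th in Homo 7. It was above 0 in 5 of 12 libraries, whereas 92.5% of the 2519 genes with a mean of 10 to 20 FPKM, the range that holds the *Gh* mean of 15.1, were above 0 in all 12. The FPKM worth of 1 fragment was estimated from the most frequent low value in each library. By this estimate *Gh* rested on about 449 fragments in WT 3, 363 in WT 5 and 448 in Homo 7, and on about 1 in WT 4 (0.996) and Homo 6 (1.10). For the 7 libraries listed at 0, 3 fragments of *Gh* were taken as an approximate upper limit, not a hard maximum. The value of 3 fragments was estimated at 0.692 to 1.48 FPKM. These estimates cover counting error only.

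**Figure D1:**
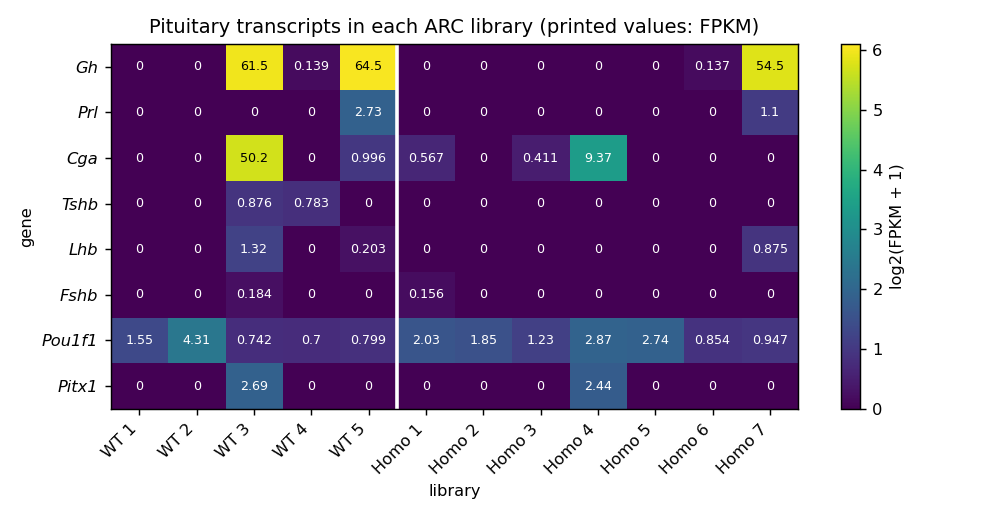
Levels of the 8 pituitary transcripts (rows) in the 12 ARC libraries (columns, WT left of the white line and Homo right of it); colour is log2(FPKM + 1) and the printed number is FPKM. *Gh* stands at 54.5 to 64.5 FPKM in WT 3, WT 5 and Homo 7, *Cga* and *Pitx1* are high in WT 3 and Homo 4, and *Pou1f1* is above 0 in every library.

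*Prl* encodes prolactin and lies on chromosome 13 (27057570 to 27065205, plus strand). Its level was 2.73 FPKM in WT 5 and 1.10 in Homo 7, and it was listed at 0 in the other 10 libraries. Both libraries with *Prl* also carried *Gh* at a high level, but WT 3, with 61.5 FPKM of *Gh*, had *Prl* at 0. In WT 5 and Homo 7, *Gh* per unit length was well above *Prl*. An antisense transcript, *Gm47888*, overlaps *Prl*, and their reads cannot be told apart without strand in the counting.

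*Cga*, the shared α subunit gene on chromosome 4 (34893779 to 34907370, plus strand), followed another pattern. It was at 0, 0, 50.2, 0 and 0.996 FPKM in WT 1 to 5, and at 0.567, 0, 0.411, 9.37, 0, 0 and 0 FPKM in Homo 1 to 7. WT 3 was far above the rest and Homo 4 was second. Of the libraries with high *Gh*, WT 3 had *Gh* and *Cga* at similar levels (a ratio of 1.22), WT 5 had 64.7 times more *Gh* than *Cga*, and Homo 7 had *Cga* at 0. Homo 4 in turn had *Cga* with *Gh* listed at 0. *Cga* was above 0 in 5 of 12 libraries, against 90.1% of 4815 genes with a mean of 3 to 10 FPKM that were above 0 in all 12. A noncoding transcript, *Platr9*, overlaps *Cga* on the opposite strand, and the sources used here do not say that strand was used in counting, so their reads cannot be told apart.

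The 3 β subunit genes were low in every library. *Tshb*, for thyroid-stimulating hormone, was at 0.876 FPKM in WT 3 and 0.783 in WT 4, and at 0 in the other 10. *Lhb*, for luteinizing hormone, was at 1.32 FPKM in WT 3, 0.203 in WT 5 and 0.875 in Homo 7, and at 0 in the other 9. *Fshb*, for follicle-stimulating hormone, was at 0.184 FPKM in WT 3 and 0.156 in Homo 1, and at 0 in the other 10. WT 3 was thus the only library with all 3, and these values rest on few fragments: an estimated 7.02 for *Lhb* and 2.80 for *Fshb* in WT 3, and 5.25 for *Lhb* in Homo 7. *Tshb* on chromosome 3 (102775465 to 102782718, minus strand) lies within *Tspan2* on the opposite strand, which was at 4.92 to 15.6 FPKM, and *Lhb* on chromosome 7 (45420820 to 45421897, plus strand) overlaps *Ruvbl2*, which was at 5.76 to 16.7 FPKM. Without strand in the counting, reads from these neighbours cannot be told apart from the members'. *Fshb* on chromosome 2 (107056140 to 107059656, minus strand) overlaps no other gene. The table's *Lhb* identifier is not in GENCODE release 21, and its position is that of the gene with the same symbol there.

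The transcription factors did not follow the hormones. *Pitx1*, on chromosome 13 (55825051 to 55836192, minus strand), reached 2.69 FPKM in WT 3 and 2.44 in Homo 4, and was listed at 0 elsewhere. These are the 2 libraries with the most *Cga*, and WT 5 and Homo 7, with high *Gh*, had it at 0. *Pou1f1*, on chromosome 16 (65520511 to 65535005, plus strand), was above 0 in all 12: 1.55, 4.31, 0.742, 0.700 and 0.799 FPKM in WT 1 to 5 and 2.03, 1.85, 1.23, 2.87, 2.74, 0.854 and 0.946 FPKM in Homo 1 to 7. Among 3328 genes with a mean of 1 to 3 FPKM, 65.5% were above 0 in all 12. WT 2 was the highest library and the lowest were WT 4 and WT 3. Both genes have overlapping noncoding transcripts, *Gm49631* at *Pou1f1* and *Gm47071* and *Gm28760* at *Pitx1*, whose reads cannot be told apart without strand.

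Counted over the 8 members, WT 3 had 7 above 0 (all but *Prl*), WT 5 had 5, Homo 7 had 4, WT 4, Homo 1 and Homo 4 had 3 each, Homo 3 and Homo 6 had 2 each, and WT 1, WT 2, Homo 2 and Homo 5 had only *Pou1f1*. The summed level of the 6 hormones was 114 FPKM in WT 3, 68.4 in WT 5, 56.4 in Homo 7 and 9.37 in Homo 4. In the other 8 libraries it was between 0 and 0.922 FPKM. Hormones and *Pitx1* were found together in WT 3 and Homo 4 alone.

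The libraries also differed in how many genes were above 0. WT 3, WT 4, WT 5, Homo 6 and Homo 7 had 18141 to 18635 such genes, and the other 7 (WT 1, WT 2 and Homo 1 to 5) had 15742 to 16467; the labels name no batch for this split, though the titles of Homo 6 and Homo 7 are worded differently from those of Homo 1 to 5. *Gh* was above 0 in exactly the 5 libraries with more genes, but at about 1 fragment in WT 4 (0.139 FPKM) and Homo 6 (0.137). In the 7 with fewer genes, 1 fragment of *Gh* was worth an estimated 0.231 to 0.493 FPKM. A level as low as in WT 4 and Homo 6 could go unseen there. *Pou1f1* ran the other way from *Gh*. It was at 1.23 to 4.31 FPKM (median 2.03) in the 7 with fewer genes. In the 5 with more it was at 0.700 to 0.946 (median 0.799). Only 0.699% of the 14017 genes tested had every library with fewer genes above every library with more, and 0.592% had the reverse. *Cga* and *Pitx1* occurred in both sets of libraries. The part of depth in these patterns was not tested.

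**Figure D2:**
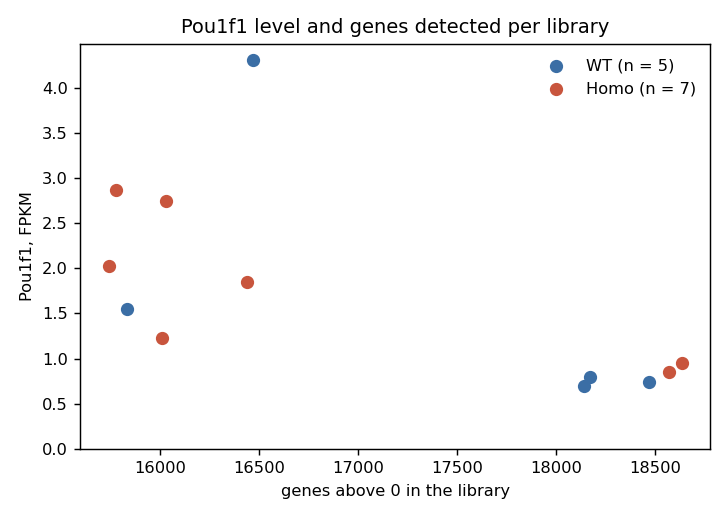
*Pou1f1* level in FPKM (vertical axis) against the number of genes above 0 in the library (horizontal axis), 1 point per library, coloured by genotype. The 7 libraries with 15742 to 16467 genes lie at 1.23 FPKM or above, and the 5 with 18141 to 18635 genes at 0.946 FPKM or below, with both genotypes in each cluster.

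Other pituitary transcription factors were compared with the members library by library. *Gata2*, a factor of thyrotrophs and gonadotrophs, was highest in WT 3 at 3.02 FPKM, followed by Homo 3 at 1.46, and *Foxl2*, a gonadotroph factor, was highest in WT 3 at 1.10 FPKM with every other library at 0.201 or below. *Pax7*, a factor of the intermediate lobe, was at 0 in all 12. Of the 15 factors on this list, 5 had a mean of at least 1 FPKM (*Tbx19*, *Rxrg*, *Isl1*, *Six3* and *Six6*), and several of these are also made in hypothalamus.

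Receptors that define some pituitary cells were listed at 0. *Ghrhr*, the growth hormone-releasing hormone receptor of somatotrophs, and *Gnrhr*, the receptor of gonadotrophs, were listed at 0 in all 12 libraries, including those with 54.5 to 64.5 FPKM of *Gh*. In those libraries *Gh* itself rested on an estimated 363 to 449 fragments, so a transcript much scarcer than *Gh* could be missed. The zeros therefore do not show that these cells were absent. *Avpr1b*, a corticotroph receptor, was at 0.0884 FPKM or below. *Trhr*, *Crhr1*, *Drd2* and *Sstr2*, which neurons also express, were above 0 in every library. Of genes linked to the pars tuberalis, *Mtnr1a* was highest in Homo 4 at 1.69 FPKM and WT 5 at 1.00 FPKM and was at 0.214 or below elsewhere. *Hlf*, a clock-controlled factor that the brain also makes, was at 103 FPKM in WT 3, 65.7 in WT 5, 49.0 in Homo 7 and 48.1 in Homo 4, against 13.8 to 28.6 in the other 8. The genes thus did not mark 1 tissue in 1 set of libraries, and the name pituitary transcripts is kept here for the genes, not for a cell type found in the samples.

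Genes of other tissues were high in some of the same libraries. The 4 hemoglobin genes of the table (*Hba-a1*, *Hba-a2*, *Hbb-b1* and *Hbb-b2*), which mark red blood cells, were each highest in WT 3, WT 5 and Homo 7. *Hbb-b1* was at 240 FPKM in WT 3, 325 in WT 5 and 212 in Homo 7 and between 22.2 and 94.1 in the other 9. These genes are near-identical pairs, so the split between them is uncertain. *Alas2*, the heme synthesis enzyme of red cells, was highest in WT 5 at 4.75 FPKM but at 1.35 in Homo 7, below Homo 4 at 3.46. The summed level of the 5 blood genes found ran from 42.4 to 590 FPKM over WT libraries and from 46.7 to 355 over Homo libraries. The choroid plexus list was summed at 2.19 to 9.93 FPKM in WT and 1.29 to 7.99 in Homo. The meningeal and fibroblast list was summed at 4.67 to 38.1 and 2.97 to 16.9, and both sums were highest in WT 3. Within the choroid plexus list only *Kcnj13* (4.91 FPKM) and *Otx2* (1.60) were highest in WT 3. *Ttr* was at 0.669 FPKM in WT 3 and highest in Homo 6 at 3.88, *Kl* was highest in WT 2 and *Folr1* in Homo 7. The lowest meningeal and fibroblast sum, 2.97 FPKM, was in Homo 7, a library with high *Gh*. *Dcn*, a matrix gene of fibroblasts, was at 30.9 FPKM in WT 3 and at 13.0 or below elsewhere. The part of blood, meninges or choroid plexus in the member levels was not tested.

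WT 3, with the most members, was also the library lowest in several ARC neuropeptides, though not in *Tac2* or *Kiss1*. *Agrp* was at 181 FPKM there against 208 to 597 elsewhere, *Npy* at 514 against 856 to 1795, *Pomc* at 190 against 356 to 1350, and *Ghrh*, the releasing hormone for growth hormone, at 97.4 against 146 to 531. All these ARC genes were nevertheless abundant in all 12 libraries. The next lowest library was WT 4 for *Pomc* and *Ghrh* (356 and 146 FPKM) and WT 5 for *Agrp* and *Npy* (208 and 856 FPKM). The hormone sum in WT 4 was only 0.922 FPKM. WT 5 and Homo 7, the other 2 libraries with high *Gh*, had *Pomc* at 862 and 990 FPKM and *Ghrh* at 418 in each. In bulk RNA, fewer cells of a type and less RNA per cell cannot be told apart.

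**Figure D3:**
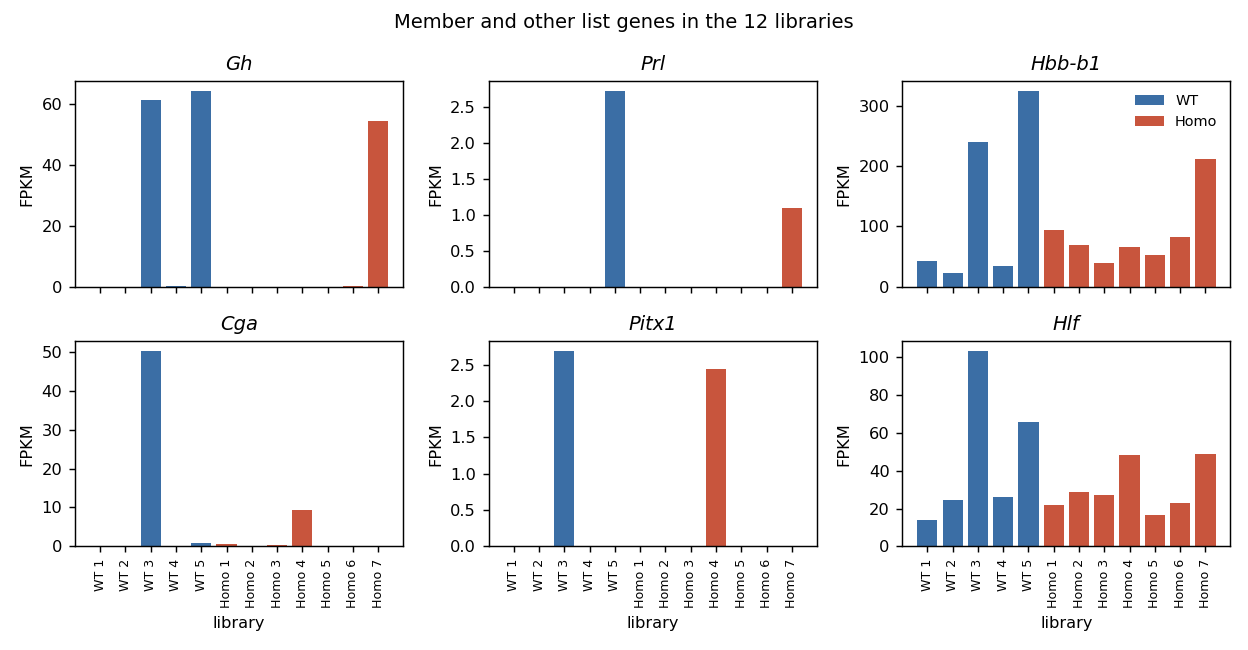
FPKM (vertical axes, each from 0) of 4 members (*Gh*, *Prl*, *Cga*, *Pitx1*) and 2 other genes (*Hbb-b1*, *Hlf*) in each of the 12 libraries (horizontal axes), with WT in blue and Homo in red. *Gh* and *Hbb-b1* are highest in WT 3, WT 5 and Homo 7; *Prl* is above 0 in WT 5 and Homo 7; *Cga* and *Pitx1* are highest in WT 3 and Homo 4; and *Hlf* is highest in these 4 libraries.

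The comparison of Homo with WT asks whether the members' levels differed with genotype. It was made with limma on log2(FPKM + 1) over the 14017 genes with a mean of at least 1 FPKM, of which 1 (0.00713%) passed an adjusted p of 0.05; that gene was no member. *Gh*, *Cga* and *Pou1f1* were tested and none passed. The *Gh* difference, Homo minus WT on the log2 scale, was -1.58 (SE 1.49, limma adjusted p = 0.923), with means of 2.44 in WT and 0.854 in Homo. The *Cga* difference was -0.69 (SE 0.939, limma adjusted p = 0.943) and that of *Pou1f1* was 0.19 (SE 0.341, limma adjusted p = 0.966). The spread between libraries of 1 genotype exceeded each of these differences, and the groups overlapped for all 8 members.

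The other 5 members were below a mean of 1 FPKM, and their differences of mean log2(FPKM + 1), Homo minus WT, were -0.227 for *Prl*, -0.348 for *Tshb*, -0.166 for *Lhb*, -0.0189 for *Fshb* and -0.122 for *Pitx1*. An exact two-sided permutation test over the 792 splits of 5 and 7 libraries, whose smallest possible p is 0.0013, gave unadjusted p from 0.152 (*Tshb*) to 0.735 (*Prl*, *Fshb* and *Pitx1*) over the 8 members, with 0.249 for *Gh*. *Tshb* was above 0 in 2 of 5 WT and 0 of 7 Homo libraries. On this scale the differences of low genes are understated.

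Single libraries set several of these values. Without WT 3 the *Cga* difference turned from -0.69 to 0.40 and that of *Pitx1* to 0.25, and the *Gh* difference was -0.70 without WT 3, -0.68 without WT 5 and -2.41 without Homo 7. Within the 5 libraries with more genes the differences were -1.07 for *Gh*, -2.23 for *Cga* and 0.12 for *Pou1f1*. Within the 7 with fewer genes *Gh* was at 0 throughout, *Cga* differed by 0.90 and *Pou1f1* by -0.25.

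**Figure D4:**
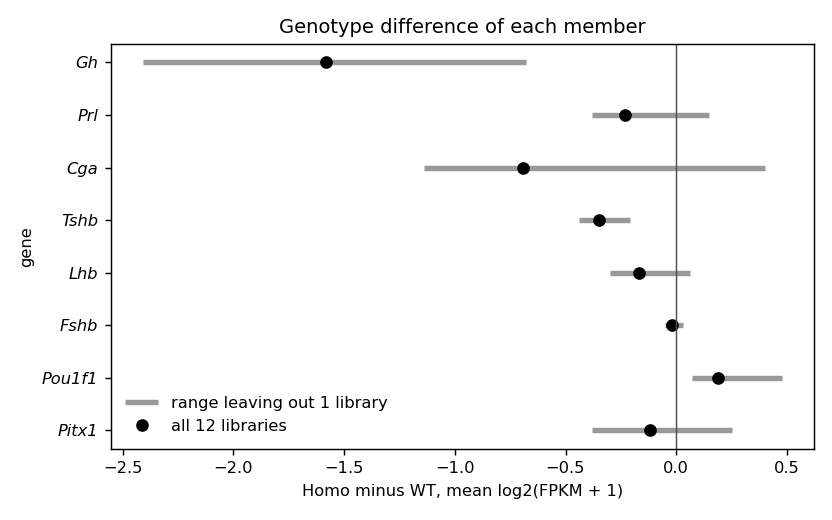
Homo minus WT difference of mean log2(FPKM + 1) for each member (horizontal axis); points use all 12 libraries and grey bars span the values when each library is left out in turn. The bars of *Prl*, *Cga*, *Lhb*, *Fshb* and *Pitx1* cross 0, and the *Gh* bar runs from -2.41 to -0.68.

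The axes upstream and downstream of these hormones were described with lists of other genes, 89 of whose 91 genes were in the table and 63 of which were tested. At an unadjusted limma p under 0.05, 3 of the 63 were higher in Homo and 1 was lower, against 3.05% higher and 2.5% lower over all 14017 genes, and none passed after adjustment. The median difference over the 63 was 0.0178, beside -0.00621 over all genes tested. Of 12 tested hypothalamic factors that act on the pituitary, 10 had a higher mean log2 value in Homo, beside 6912 of all 14017 genes tested. Their median difference was 0.416 on the log2 scale. The summed FPKM of the 13 genes of that list went the other way, with medians of 2910 in WT and 2300 in Homo. That sum was lowest in WT 3, at 1100 FPKM. Of the 12 factors tested, *Slc6a3*, the dopamine transporter of neurons whose dopamine restrains prolactin, had the only unadjusted p under 0.05 (difference 0.95, SE 0.321, limma unadjusted p = 0.0103). Its range was 1.03 to 7.01 FPKM in WT, with a median of 3.30, and 3.65 to 11.1 in Homo, with a median of 6.86, so the groups overlapped. *Sst*, whose product somatostatin inhibits growth hormone release, was at 714 FPKM in WT 3 and at 1013 or above elsewhere. *Gnrh1*, which drives the gonadotrophs, was at 0.795 to 26.1 FPKM, and *Crh* was at 0 in 10 of 12 libraries.

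The other 3 genes with an unadjusted p under 0.05 were *Agrp* (medians of 272 FPKM in WT and 474 in Homo) and *Npy* (980 and 1452), higher in Homo, and *Crym*, a gene of the tanycyte and median eminence list, lower in Homo (difference -0.98, SE 0.416, limma unadjusted p = 0.0329). *Crym* was at 0.475 to 5.52 FPKM in WT and 0.232 to 2.07 in Homo. Of the 8 genes of that list, 2 had a higher mean in Homo, beside 6912 of all 14017 genes tested, and the median difference was -0.23.

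Some receptors for the pituitary hormones were present where the hormones were not. *Prlr*, the prolactin receptor, was at 15.8 to 41.7 FPKM and *Ghr*, the growth hormone receptor, at 9.62 to 25.5 FPKM across the 12 libraries, so both were well above 0 in libraries where *Prl* and *Gh* were listed at 0. The other receptors of the list were low or not seen. *Tshr* was at 0.098 to 2.16 FPKM, *Lhcgr* at 0.395 or below, *Mc2r* at 0.0527 or below, and *Fshr* at 0 in all 12. None of the 2 receptors tested, *Ghr* and *Prlr*, had an unadjusted p under 0.05. Neither did any of the 6 genes of growth hormone and prolactin signalling. Of those 6, 4 had a higher mean in Homo, beside 6912 of all 14017 genes tested. *Socs2*, a target of that signalling, was highest in WT 3 at 19.2 FPKM, but WT 5 and Homo 7 were at 3.54 and 4.40 FPKM.

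The genes most like the members were sought by Pearson's r over the 12 libraries with the mean log2(FPKM + 1) of *Gh*, *Cga* and *Pou1f1*. The 10 highest were *Ces1d* (r = 0.950), *Hlf* (0.924), *Rgs8* (0.919), *U1* (0.897), *Hltf* (0.866), *Gm1992* (0.859), *SNORD113* (0.853), *Otud5* (0.853), *AC122925.1* (0.851) and *Igf2* (0.839). *Ces1d*, a carboxylesterase, was at 7.81 FPKM in WT 3, 7.87 in WT 5, 2.43 in Homo 4 and 2.28 in Homo 7 and at 0.136 or below in the other 8. *Igf2*, a growth factor gene also made by meninges and choroid plexus, was at 28.7 FPKM in WT 3, 11.4 in Homo 4, 8.99 in WT 5 and 7.20 in Homo 7, against 1.11 to 7.17 elsewhere. *Gm1992*, *U1* and *SNORD113* were above 0 in WT 3, WT 5 and Homo 7 only. The annotated transcripts of *U1* (164 bases), *SNORD113* (72) and *AC122925.1* (125) are shorter than the 200 bp to which the libraries were fragmented, and U1 and SNORD113 belong to repeated families, so their values are uncertain. The r values rest on few libraries: Spearman's rho shared 1 of the 10 names, and 2 of the 10 remained without WT 3, 4 without WT 5 and 5 without Homo 7. The points share library, depth and amplification.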

How the data were processed

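The values are FPKM, which the authors deposited as 1 table of 38283 genes by 12 libraries; the submitters' processing notes name TopHat2 2.0.8, Cufflinks 2.2.1 and GRCm38 without their roles or settings, and the sequencer was an Illumina HiSeq 2500. Any further scaling is not given in the sources used here. Read totals are not in the table, so depth is known only through the estimated worth of 1 fragment, the modal value over 1-transcript genes longer than 500 bases after subtracting 180 bases from the length, a choice made after seeing the values. No columns were left unmatched. The members and lists were chosen with earlier results of these data known. The text names the 8 members, list genes described by role, and the 10 genes with the highest Pearson's r to the members.

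Values were taken as log2(FPKM + 1). The genes averaging 1 FPKM or more went into limma 3.58.1 (R 4.3.3; trend, robust, Benjamini-Hochberg), in a script checked on simulated data. Permutation tests used the absolute difference of means. Positions are from GENCODE release 21, which held 97.5% of the tested identifiers. Alternatives changed scaling, pseudocount, filter, weights, library set, replicate block and each library. Some genes of the lists are not reported here.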

Additional observations from a re-analysis of the deposited data

Results flagged for a closer look

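Within each genotype, a library was singled out when its gap to the next one exceeded Dixon's 95% critical share of the group's range; 19 groups of values were examined over 10 genes, and 13 were singled out. The chance rate of about 1 in 20 cannot be applied here, because the genes were chosen with their uneven levels in these libraries known and many values are 0, so the shares are a description and no test. In WT, the gap as a share of the range was 0.98 for *Cga*, 0.846 for *Lhb*, 1.0 for *Fshb* and 1.0 for *Pitx1* in WT 3, 1.0 for *Prl* in WT 5 and 0.764 for *Pou1f1* in WT 2. In Homo, it was 0.997 for *Gh*, 1.0 for *Prl*, 1.0 for *Lhb* and 0.685 for *Hbb-b1* in Homo 7, 0.94 for *Cga* and 1.0 for *Pitx1* in Homo 4 and 1.0 for *Fshb* in Homo 1. A share of 1.0 means that every other library of the genotype was listed at 0.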

How the results depend on the processing

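Over 200 alternative values of the 8 members' genotype differences, 185 kept their direction, 11 turned and 4 were 0 (*Gh*, *Prl*, *Tshb* and *Lhb* within the libraries with fewer genes). The 83 that came with a limma adjusted p did not pass the threshold (smallest 0.724); the other values were not tested. Without WT 3, *Cga* turned to 0.40, *Lhb* to 0.063, *Fshb* to 0.03 and *Pitx1* to 0.25, and without WT 5 *Prl* turned to 0.15; the lowest values on leaving out a library were -1.14, -0.3, -0.049, -0.38 and, for *Prl*, -0.38. *Pou1f1* turned to -0.083 with library set as a covariate and *Fshb* to 0.031 under quantile normalization. Within the 7 libraries with fewer genes, a split added after seeing the data, *Cga* turned to 0.90, *Fshb* to 0.042, *Pou1f1* to -0.25 and *Pitx1* to 0.36. The number of genes passing the adjusted threshold, 1 with all libraries, was 1 to 3 when each library was left out (3 without WT 2, 2 without Homo 4), 6 within the libraries with fewer genes and 19 within those with more. The number of other list genes at an unadjusted p under 0.05, 4 with all libraries, was 2 with library set as a covariate and 1 to 7 leaving out each library (7 without Homo 3, 1 without Homo 4). The 10 most similar genes shared 1 name with Spearman's rho and 2 to 10 when each library was left out. The replicate block, which could use numbers 1 to 5 only, gave 2 genes, and the same 10 libraries without it gave 4, an addition made after seeing the data; *Gh* was -2.44 in both. Same-numbered libraries did not deviate together over the tested genes (correlations -0.0537 to 0.0288). No pairing by number was thus seen, though a pairing that touches few genes could be missed. FPKM gives no counts, so members near 1 fragment cannot be told from 0. The causes were not tested.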
